A study of Mus musculus with 8 samples.

Results

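The 10 genes described here belong to the circadian clock, the transcription loop that keeps daily time in most mammalian cells: Per1, Per2, Per3, Cry1, Ciart, Nr1d1, Nr1d2, Clock, Dbp and Tef. They were taken by gene symbol from a table of 19558 genes, and the counts of all transcripts listed under each gene were summed. All 10 were present and all 10 passed the filter on low counts. The 8 libraries came from the hippocampus of wild-type mice of the strain labelled C57BL/6 KP at postnatal day 40. In 1 group of 4 mice the ATM kinase blocker KU55933, a small molecule, was given through the nose under anesthesia. The other 4 mice received the vehicle, 4% DMSO in saline, by the same route, and the labels give the figure of 7.5 mg/kg for both treatments. The hour of the day at which tissue was collected, the light schedule and the interval from dosing to collection are not given by any source used here. Differences in clock time between libraries or groups therefore cannot be told apart from other differences.

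In the core of the loop the proteins CLOCK and BMAL1 (the product of Arntl) pair and switch on genes that carry an E-box, among them the Per and Cry genes, Ciart, Nr1d1, Nr1d2 and Dbp. PER and CRY proteins, and CHRONO, the product of Ciart, then repress CLOCK and BMAL1. The nuclear receptors REV-ERBα (Nr1d1) and REV-ERBβ (Nr1d2) repress Arntl and other genes through a response element called RRE. DBP and TEF are PAR bZIP transcription factors that activate genes through D-boxes, Per genes included. The master clock sits in the suprachiasmatic nucleus of the hypothalamus, and the hippocampus, like most tissues, has a rhythm of its own in these transcripts. Per1 and Per2 are also switched on by neuronal activity and by glucocorticoids.

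The stretch around the start site of a clock gene is one place where such factors can bind, and sites further away were not searched. Of the members' stretches 5 are shown because they hold a searched motif. Each runs from 250 bases before to 50 bases after an annotated start, 5′ to 3′ on the gene's strand, from RefSeq on build GRCm38.p6, with motif matches in capitals. The table held 13 such stretches for 9 of the 10 members, and Per2 was not among them. Both strands were searched for the E-box CACGTG, the E′-box CACGTT, the D-box TTANGTAA and the RRE, and these 4 motifs do not overlap in the matches printed. Capitals mark 3 E-boxes in Ciart (chr3:95882179-95882478, minus strand), which begin 116, 58 and 44 bases before the start. In Per3 (chr4:151044616-151044915, minus strand) they mark D-boxes that begin 205 and 158 bases before the start. In Per1 (chr11:69098699-69098998, plus strand, the first of its listed starts) they mark an E-box 166 bases before the start. In Cry1 (chr10:85185005-85185304, minus strand) they mark an E′-box at 79 and an E-box at 60 bases before the start, and in Nr1d1 (chr11:98775328-98775627, minus strand) an E′-box at 28 bases. E′-box matches read AACGTG here because the motif lies on the other strand.
Ciart: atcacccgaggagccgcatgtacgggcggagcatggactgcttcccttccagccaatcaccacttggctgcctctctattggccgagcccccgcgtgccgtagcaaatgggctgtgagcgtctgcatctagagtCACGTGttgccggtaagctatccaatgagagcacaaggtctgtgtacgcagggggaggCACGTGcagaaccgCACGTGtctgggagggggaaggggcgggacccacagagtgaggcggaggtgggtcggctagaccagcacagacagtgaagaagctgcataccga
Per3: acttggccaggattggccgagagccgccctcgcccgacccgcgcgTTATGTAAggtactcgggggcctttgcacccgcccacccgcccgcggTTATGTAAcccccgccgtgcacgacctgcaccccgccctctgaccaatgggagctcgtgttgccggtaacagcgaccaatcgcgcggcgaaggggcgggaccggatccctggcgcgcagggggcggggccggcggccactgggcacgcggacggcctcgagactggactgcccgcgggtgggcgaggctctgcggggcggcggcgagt
Per1: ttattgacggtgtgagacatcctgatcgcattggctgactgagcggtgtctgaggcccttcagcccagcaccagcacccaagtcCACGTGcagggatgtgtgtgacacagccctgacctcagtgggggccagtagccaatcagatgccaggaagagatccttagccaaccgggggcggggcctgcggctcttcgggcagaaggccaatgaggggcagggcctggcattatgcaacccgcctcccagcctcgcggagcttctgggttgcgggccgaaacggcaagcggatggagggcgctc
Cry1: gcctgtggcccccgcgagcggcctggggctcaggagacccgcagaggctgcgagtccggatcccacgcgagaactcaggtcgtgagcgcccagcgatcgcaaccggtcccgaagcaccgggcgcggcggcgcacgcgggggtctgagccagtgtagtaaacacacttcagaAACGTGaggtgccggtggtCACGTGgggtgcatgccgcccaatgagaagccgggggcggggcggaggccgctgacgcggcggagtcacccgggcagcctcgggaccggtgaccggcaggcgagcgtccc
Nr1d1: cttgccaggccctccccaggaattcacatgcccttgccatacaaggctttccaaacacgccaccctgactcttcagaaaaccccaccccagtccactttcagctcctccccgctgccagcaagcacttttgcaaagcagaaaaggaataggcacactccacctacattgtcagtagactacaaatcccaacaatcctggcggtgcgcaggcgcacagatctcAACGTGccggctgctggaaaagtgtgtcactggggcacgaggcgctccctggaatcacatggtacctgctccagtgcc
Both Tef stretches hold an E-box as well, 127 and 138 bases before their starts, and the stretches of Dbp, Nr1d2 and Clock hold none of the 4 motifs. Of 32851 mouse promoters of this length, 7.15% hold the E-box, 4.68% the E′-box, 2.32% the D-box and 0.219% the RRE. A match describes letters in the window and does not show binding.

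The libraries held 40586998 to 46630341 estimated counts in vehicle and 34190440 to 37499003 in KU55933, and levels are given as CPM, which sets a gene's count against the library total after TMM scaling. Of 9 hippocampal neuron markers none averaged under 1 CPM, and their sum lay at 1213 to 1388 CPM in vehicle and 1031 to 1226 CPM in KU55933. Of 12 markers of the hypothalamus and suprachiasmatic nucleus 11 averaged under 1 CPM, the exception being Vip, which hippocampal interneurons also express. The extraction text names RNA inputs for hypothalamus and PFC although each library is labelled hippocampus. KU55933 1 and 2 stood apart by 8 choroid plexus markers, which summed to 1176 and 1252 CPM against 59.4 and 75.8 CPM in KU55933 4 and 3 and 52.7 to 114 CPM in vehicle. The mitochondrially encoded share of counts was 4.36 to 4.77% in vehicle and 5.08 to 5.48% in KU55933, without overlap. Of the hippocampal markers, which had a median GC content of 57.7%, 4 of 9 were called lower by edgeR, where 14.6% of all tested genes were. Their median log2 change was -0.21. Of 5 tested thalamic and other subcortical neuron markers 2 were called higher, where 6.92% of all were, with a median of 0.62. With each library's dependence on GC content and length entered in the fit, edgeR called 0 of either list, and the medians were -0.15 and 0.69. The part of these differences in the clock gene values was not tested. Relative to each gene's mean over the 8 libraries, log2 CPM followed the GC content of the transcripts differently in each library. The slopes, in log2 CPM per 10 percentage points of GC, were 0.14, 0.20, 0.27 and 0.26 in vehicle 1 to 4. In KU55933 1 to 4 they were -0.28, -0.35, -0.12 and -0.12. Their signs set libraries against each other and do not show that expression itself rose or fell with GC. Transcripts annotated as retained introns took 2.77% of counts in vehicle 1 and 2.07% in KU55933 1, against 3.35 to 4.16% in the other 6 libraries. Since the tissue was bulk, fewer cells of a type and less RNA per cell cannot be told apart.

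Of the 10 clock genes 5 differed between KU55933 and vehicle, 3 lower and 2 higher, where 21.6% of all 15481 tested genes did (14.6% lower and 6.92% higher). The members were chosen with earlier results of these data known, so their share is a description and not an independent comparison with all genes. Dbp, Per1 and Nr1d1 were lower and Nr1d2 and Clock were higher, at an adjusted p under 0.05 from the quasi-likelihood test of edgeR (Benjamini-Hochberg). In the same 5 genes all KU55933 libraries lay on one side of all vehicle libraries, which held for 26.7% of all tested genes. Per2, Per3, Cry1, Ciart and Tef did not pass. The median log2 change of the 10 was -0.16, and that of all tested genes 0.01. The genes did not move together: E-box-driven members stood both among the lower (Dbp, Per1, Nr1d1) and the higher ones (Nr1d2). When the dependence of every library on GC content and on length was entered as an offset, edgeR called 0 of the 10 (1 with an unadjusted p under 0.05, Cry1), where it called 1.96% of all genes (0.672% higher and 1.29% lower), and the values of Per1 and Nr1d1 turned to 0.15 and 0.06. Without the offset DESeq2 called 5 of the 10 too, and 4409 of all genes. Without KU55933 1 and 2 edgeR called 0 of the 10, and calls among all genes fell as well, from 3338 to 1090.

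**Figure D1:**
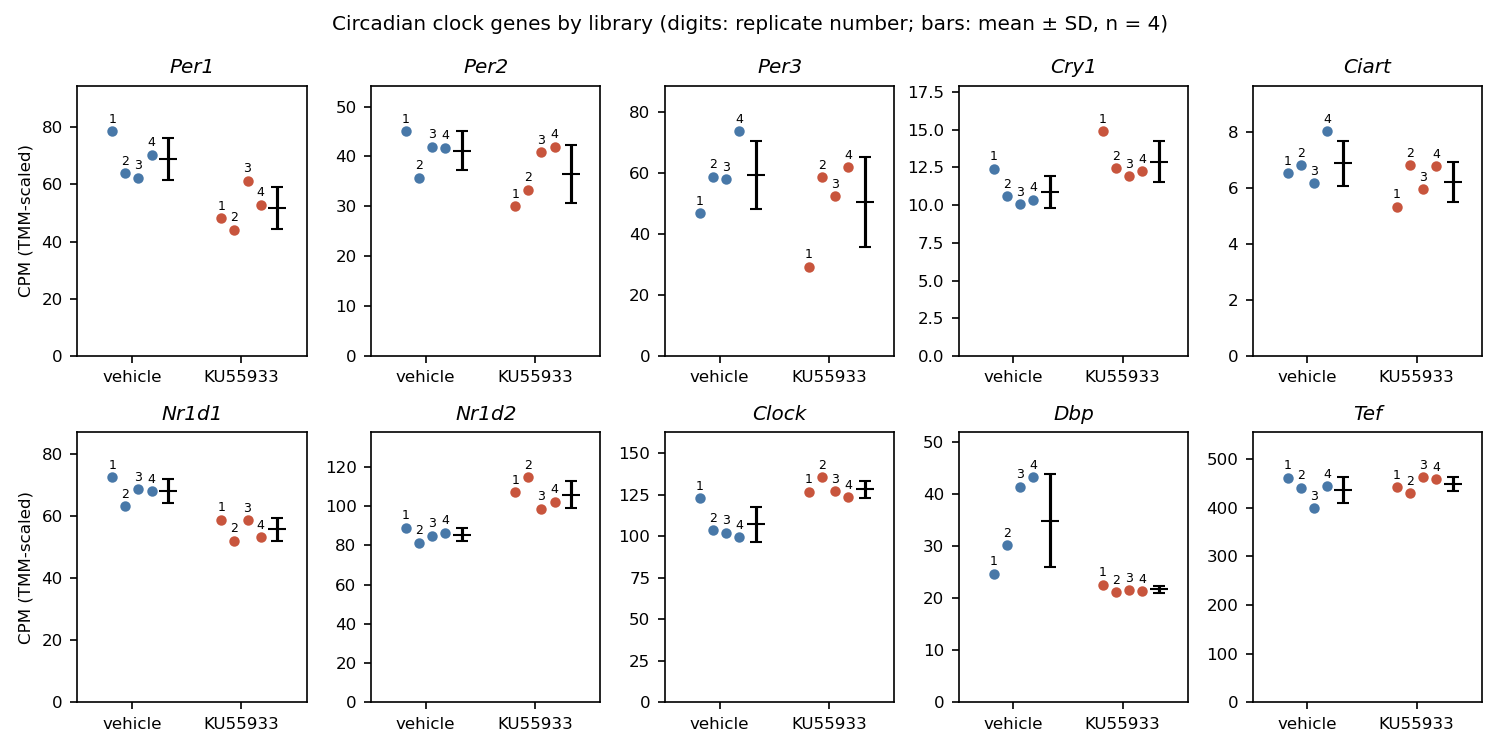
CPM (TMM-scaled) of the 10 clock genes in each library, vehicle on the left and KU55933 on the right of each panel, with digits for replicate numbers and bars for the mean ± SD (n = 4). Dbp ran from 24.8 to 43.2 CPM in vehicle and stayed between 21.2 and 22.6 CPM in KU55933, while Tef overlapped, with 400 to 461 CPM in vehicle and 431 to 462 CPM in KU55933.

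The activator gene Clock (ENSMUSG00000029238) had 123, 104, 102 and 99.5 CPM in vehicle 1 to 4 and 127, 135, 127 and 124 CPM in KU55933 1 to 4. The lowest KU55933 library lay just above vehicle 1, and the other vehicle libraries lay well below. The means were 107 ± 10.7 and 128 ± 5.03 CPM (SD, n = 4 each), a difference of 0.26 ± 0.08 in log2 (SE, adjusted p = 0.0415 by edgeR). Clock lost this call when any of vehicle 2, 3 or 4 or KU55933 1, 2 or 3 was left out (adjusted p up to 0.132 by edgeR). It kept the call without vehicle 1 and without KU55933 4. In the fits that lost it the log2 change was 0.23 to 0.26. There edgeR called 188, 151 and 165 of all genes higher without vehicle 2 to 4, and 552, 401 and 670 without KU55933 1 to 3. With all libraries 1071 were called higher. The call also ended with no filter on low counts (adjusted p = 0.0564), and with the GC and length offset the log2 change was 0.03 (adjusted p = 0.869 by edgeR).

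Among the repressors, Per1 (ENSMUSG00000020893), the fastest of the Per genes to respond to stimulation, had 78.7, 64.0, 62.4 and 70.5 CPM in vehicle and 48.3, 44.2, 61.4 and 52.9 CPM in KU55933. KU55933 3 lay just under the lowest vehicle library, and the other KU55933 libraries lay further down. Per1 fell 1.33-fold, from 68.9 ± 7.41 to 51.7 ± 7.35 CPM (SD, n = 4), or -0.41 ± 0.11 in log2 (SE, adjusted p = 0.0245 by edgeR) that turned to 0.15 with the GC and length offset. The call ended without vehicle 4 (adjusted p = 0.0639 by edgeR), KU55933 1 (0.0605) or KU55933 2 (0.0688). The log2 changes were then -0.40, -0.38 and -0.35, and edgeR called 1572, 1851 and 1603 of all genes lower, against 2267 with all libraries.

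Per2 (ENSMUSG00000055866), a PER protein gene needed for a sustained rhythm in mice, had 45.1, 35.8, 42.0 and 41.8 CPM in vehicle and 30.02, 33.3, 40.9 and 41.9 CPM in KU55933. KU55933 1 and 2 were the lowest of all 8 libraries, while KU55933 3 and 4 lay among the vehicle libraries. The log2 change was -0.17 ± 0.12 (SE, adjusted p = 0.309 by edgeR), and without KU55933 1 and 2 it was 0.01. These are the libraries with high choroid plexus markers and the lowest relative GC slopes, whose part in the Per2 values was not tested.

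Per3 (ENSMUSG00000028957), the PER gene whose loss leaves the mouse rhythm largely intact, had 46.9, 58.9, 58.0 and 73.8 CPM in vehicle and 29.3, 58.6, 52.3 and 62.0 CPM in KU55933. The lowest library of each group was its replicate 1, and otherwise the groups overlapped. The difference was -0.23 ± 0.23 on the log2 scale (SE, adjusted p = 0.484 by edgeR), and it was -0.04 without KU55933 1. Per3 had the widest spread of the members within KU55933, with an SD of 0.50 in log2 CPM at the 91.9th percentile of all tested genes.

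Cry1 (ENSMUSG00000020038), the cryptochrome gene that peaks late in the cycle, had 12.4, 10.6, 10.1 and 10.4 CPM in vehicle and 14.9, 12.5, 11.9 and 12.2 CPM in KU55933. Vehicle 1 was the one vehicle library inside the KU55933 range. The log2 change was 0.25 ± 0.11 (SE) with adjusted p = 0.125 by edgeR, and without vehicle 1 it passed (0.32, adjusted p = 0.0482). The offset left the value at 0.25 (adjusted p = 0.292), the largest offset value of the 10 members.

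Ciart (ENSMUSG00000038550) had the lowest CPM of the members before division by length, with 6.52, 6.80, 6.17 and 8.03 CPM in vehicle and 5.32, 6.82, 5.96 and 6.77 CPM in KU55933. The groups overlapped, and the log2 change of -0.15 ± 0.13 (SE) did not pass (adjusted p = 0.434 by edgeR). Its 3 E-boxes, shown in the promoter sequence, are the most of any member's stretch.

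The REV-ERB genes parted. Nr1d1 (ENSMUSG00000020889) had 72.5, 63.3, 68.7 and 68.1 CPM in vehicle and 58.9, 52.1, 58.7 and 53.3 CPM in KU55933. Every KU55933 library was below every vehicle library. Nr1d1 fell 1.22-fold, or -0.29 ± 0.07 in log2 (SE, adjusted p = 0.0201 by edgeR) that turned to 0.06 with the offset. The call ended without vehicle 3 (adjusted p = 0.0627 by edgeR), vehicle 4 (0.0557) or KU55933 2 (0.0521). The log2 changes were then -0.29, -0.29 and -0.26, and edgeR called 1446, 1572 and 1603 of all genes lower, against 2267 with all libraries. Nr1d1 overlaps the thyroid hormone receptor gene Thra on the opposite strand. The library kit keeps strand, and no source used here states how strand was set in the counting.

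Nr1d2 (ENSMUSG00000021775) had 89.0, 81.4, 85.0 and 86.5 CPM in vehicle and 107, 115, 98.7 and 102 CPM in KU55933. Every KU55933 library was above every vehicle library, highest in KU55933 2. Nr1d2 rose 1.24-fold, or 0.31 ± 0.07 in log2 (SE, adjusted p = 0.0130 by edgeR), and with any single library left out it still passed (adjusted p at most 0.0487). With the offset the log2 change was 0.10 (adjusted p = 0.387). The log2 ratio of Nr1d1 to Nr1d2 lay between -0.36 and -0.30 in vehicle and between -1.14 and -0.75 in KU55933, so that the groups were apart. After the GC and length trend was taken out it lay between -0.68 and -0.44 in vehicle and between -0.85 and -0.45 in KU55933, and the groups overlapped.

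Dbp (ENSMUSG00000059824), among the most strongly rhythmic transcripts of mouse tissues, had 24.8, 30.2, 41.5 and 43.2 CPM in vehicle and 22.6, 21.2, 21.6 and 21.3 CPM in KU55933. Vehicle 1 lay close to the KU55933 libraries, vehicle 2 somewhat above them, and vehicle 3 and 4 far above. Dbp fell 1.61-fold, from 34.9 ± 8.89 to 21.7 ± 0.647 CPM (SD, n = 4), the widest change of the 10, at -0.69 ± 0.16 in log2 (SE, adjusted p = 0.0149 by edgeR). It passed with each single library left out (adjusted p at most 0.0476), where the log2 change ranged from -0.81 to -0.56. Without KU55933 1 and 2 the adjusted p was 0.115, and with the offset the log2 change was -0.17 (adjusted p = 0.613).

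The Dbp spread differed in size between the groups: the SD in log2 CPM was 0.38 in vehicle, at the 88.5th percentile of all tested genes, and 0.04 in KU55933, at the 1.89th. After the GC and length trend was taken out these were 0.31 and 0.18, at the 84.4th and 62.1th percentile. The order of vehicle libraries in Dbp (1 lowest, then 2, then 3 and 4) is close to that of their GC slopes, and Dbp has 58.0% GC. After the GC and length trend was taken out the order was the same, at 4.50, 4.67, 5.04 and 5.16 log2 CPM in vehicle 1 to 4. The part of the GC trend in this order was not tested.

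Tef (ENSMUSG00000022389), the PAR bZIP gene that cycles less steeply than Dbp, had the highest level of the members, with 461, 441, 400 and 444 CPM in vehicle and 442, 431, 462 and 458 CPM in KU55933. The groups overlapped, and the log2 difference was 0.04 ± 0.07 (SE, adjusted p = 0.716 by edgeR). Missing the threshold does not show that the levels were equal.

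Per kilobase of transcript, the scale on which genes can be set against each other, the members ran in vehicle from 113 ± 6.81 CPM per kilobase for Tef to 3.64 ± 0.357 for Cry1 (SD, n = 4). Nr1d1 (25.8 ± 1.42), Dbp (23.7 ± 6.03) and Nr1d2 (21.8 ± 0.813) came next, and neighbours in this order overlapped in their vehicle libraries. Per1 (15.5 ± 1.67), Per3 (12.5 ± 2.32) and Clock (12.04 ± 1.198) followed, again with overlap between neighbours. Per2 (7.05 ± 0.669) overlapped Ciart (5.26 ± 0.618). In KU55933 Nr1d2 stood second at 26.9 ± 1.75 CPM per kilobase, ahead of Nr1d1 (21.1 ± 1.35) and Dbp (14.7 ± 0.439), and Clock (14.4 ± 0.565) stood ahead of Per1 (11.7 ± 1.66).

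The 2 members called higher were poor in GC and the 3 called lower were rich in it. Nr1d2 (41.9% GC) and Clock (41.1%) belonged to the lowest of 10 equal bins of genes by GC, where the median log2 change of 1547 genes was 0.24 and 26.1% were called higher. Per1 (59.2%) and Dbp (58.0%) belonged to the highest bin, where the median was -0.66 and 73.9% were called lower. Nr1d1 (56.8%) belonged to the bin below it, with a median of -0.36 and 42.2% called lower. Nr1d1 (-0.29), Nr1d2 (0.31) and Clock (0.26) were thus near the median of their bins, and Per1 (-0.41) lay above its own. Dbp (-0.69) was near the median of the highest bin but lay at its lower edge in GC. That bin had a median GC of 59.5%, and the bin next to Dbp had the median log2 change of -0.36. Per3, Cry1 and Ciart, at 51.4 to 51.8% GC, shared a bin with a median of 0.01 in which 1.42% were called higher and 3.23% lower. With the offset the members' log2 changes ran from -0.23 for Per3 to 0.25 for Cry1, with a median of 0.04 against 0.01 for all genes, and the lowest adjusted p was 0.292.

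**Figure D2:**
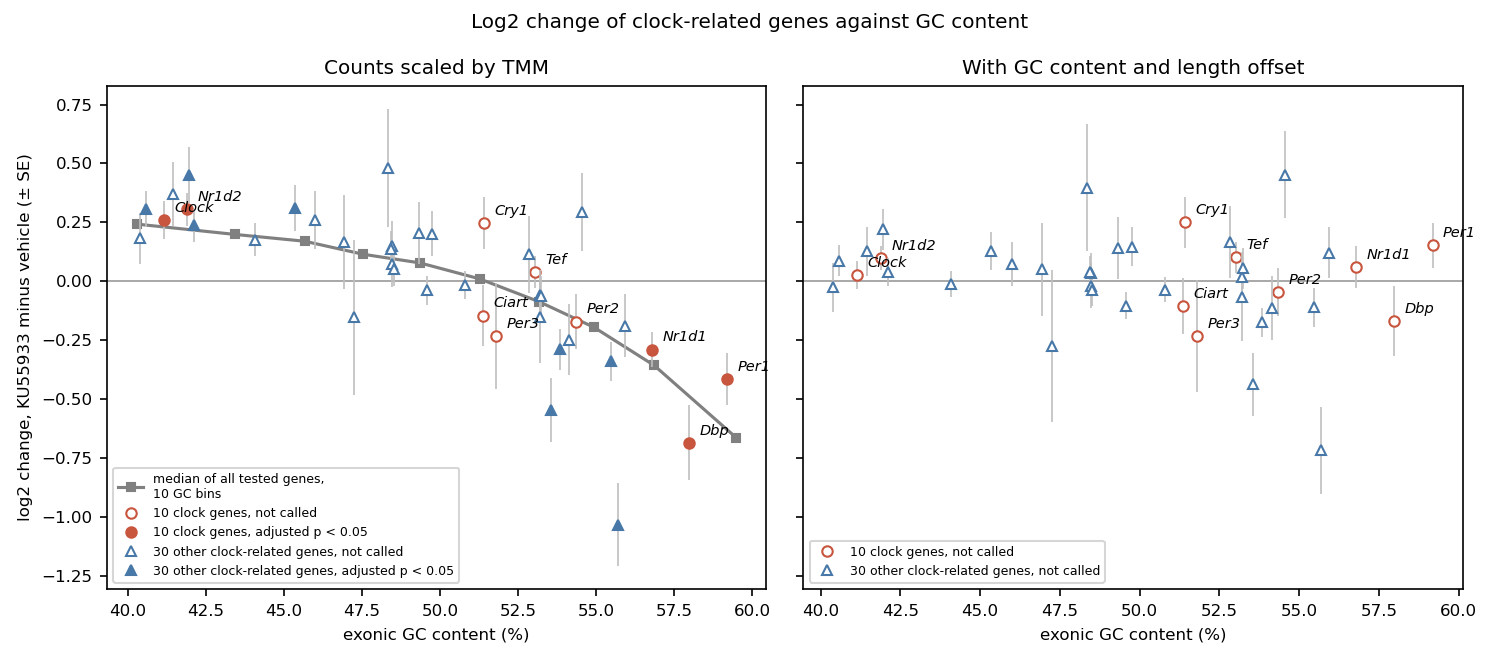
Log2 change (KU55933 minus vehicle, ± SE) of the clock-related genes against exonic GC content in percent, without an offset on the left and with the GC and length offset on the right, where filled symbols mark adjusted p under 0.05 and squares the medians of 10 GC bins of all tested genes. On the left Dbp (-0.69) and Per1 (-0.41) sit at high GC and Nr1d2 (0.31) at low GC, and on the right none of these genes is filled and Per1 lies at 0.15.

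Library by library the members did not shift as one block in either group. In the plot of differences from the mean of 8 libraries, KU55933 1 was lowest in Per2, Per3 and Ciart and highest in Cry1, and vehicle 1 was highest in Per1, Per2 and Nr1d1. Vehicle 4 was highest in Per3, Ciart and Dbp. Arntl, whose rhythm in mouse tissues runs opposite to that of Dbp, had 30.6, 30.04, 30.3 and 29.1 CPM in vehicle and 26.0, 31.1, 33.3 and 35.8 CPM in KU55933, a log2 difference of 0.07 ± 0.10 (SE, adjusted p = 0.617 by edgeR). Its vehicle libraries were nearly level, and its KU55933 libraries spread on both sides of them. The log2 ratio of Dbp to Arntl was -0.31, 0.01, 0.45 and 0.57 in vehicle 1 to 4 and -0.20, -0.55, -0.62 and -0.75 in KU55933 1 to 4. Vehicle 1 lay among the KU55933 libraries, and the rest of vehicle lay above them. After the GC and length trend was taken out the ratio was -0.50, -0.29, 0.09 and 0.25 in vehicle and 0.21, -0.05, -0.44 and -0.65 in KU55933, so that both groups covered much of the same range. The median SD of the members in log2 CPM was 0.14 in vehicle, against 0.13 for all tested genes, and 0.12 in KU55933, against 0.17. After the GC and length trend was taken out, the members' median was 0.13 in vehicle, against 0.13 for all genes, and 0.16 in KU55933, against 0.15, so that the members no longer lay below the other genes in KU55933. Without vehicle 1 the members' vehicle median was 0.0887. The like value for all genes is not given here, so this drop cannot be set against theirs.

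**Figure D3:**
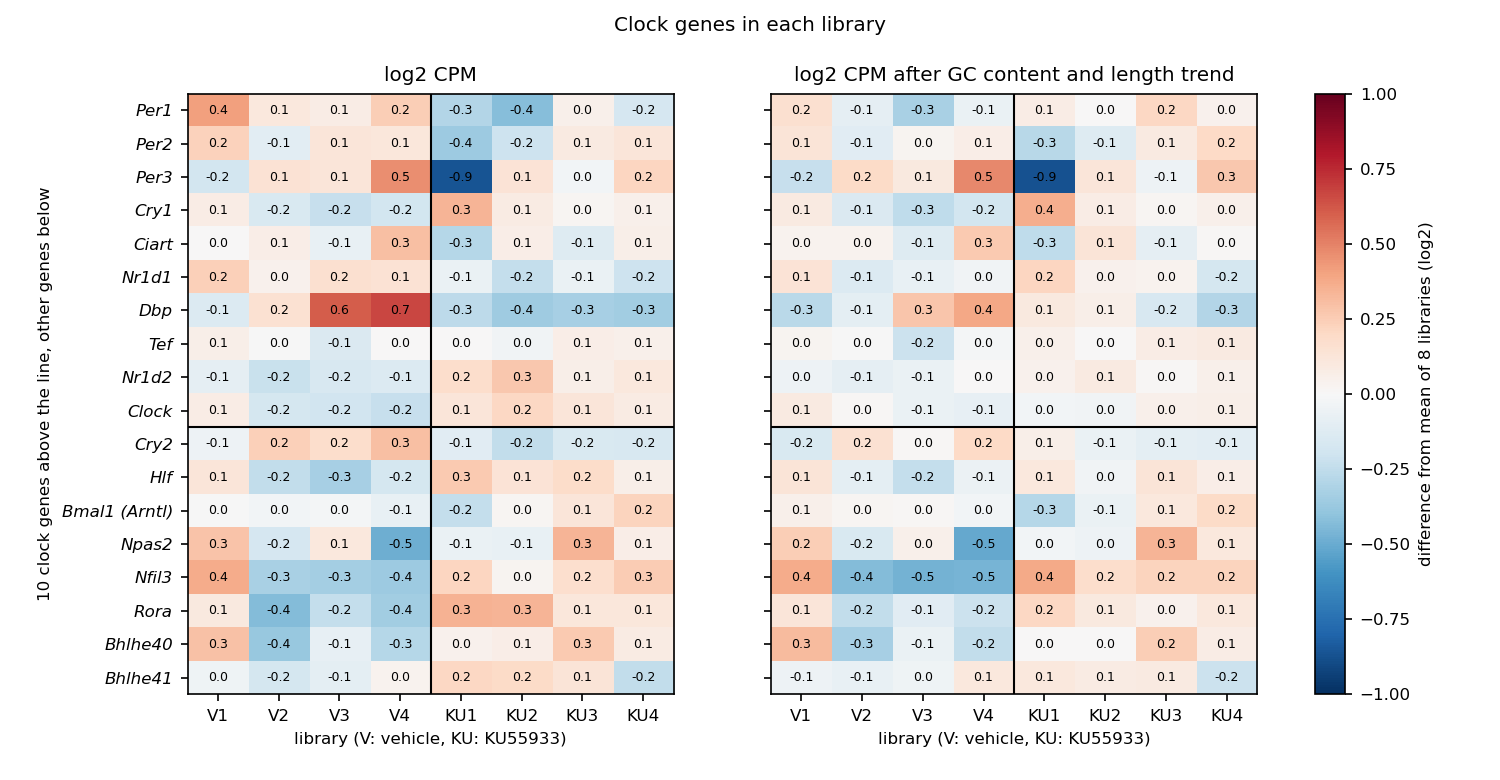
Difference of log2 CPM from the mean of the 8 libraries for the 10 clock genes (above the line) and 8 other clock genes (below it), in each vehicle (V) and KU55933 (KU) library, as measured on the left and after the GC content and length trend was taken out on the right. Dbp stands 0.6 and 0.7 above its mean in V3 and V4 on the left and 0.3 and 0.4 above on the right, and Per3 stands 0.9 below its mean in KU1 on both sides.

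At the level of single transcripts the counts are estimates that divide reads between overlapping isoforms, so they are less certain than the gene sums. Of 44 listed transcripts of the 10 genes 29 could be tested. At 0.05 over 45343 transcripts edgeR called 0 of them, where it called 6.76% of all (1.06% higher and 5.7% lower). At 0.1 it called 5 of the 29, and the share of all transcripts at 0.1 is not given here. The main coding transcript of Dbp (ENSMUST00000080885, 61.6% GC) had 13.2, 11.7, 31.9 and 33.7 CPM in vehicle and 11.3, 8.70, 8.30 and 7.98 CPM in KU55933. Vehicle 1 and 2 were close to KU55933, and vehicle 3 and 4 stood far above. Its log2 change was -1.32 ± 0.37 (SE, adjusted p = 0.0761 by edgeR). A second coding transcript of Dbp (ENSMUST00000211513, 58.1% GC) had 7.46, 11.5, 1.93 and 1.89 CPM in vehicle and 6.04, 4.82, 6.49 and 5.90 CPM in KU55933, so that it was low exactly where the first was high. A Dbp transcript with a retained intron (ENSMUST00000210120, 51.4% GC) had 1.64, 2.09, 1.73 and 0.510 CPM in vehicle and 4.07, 3.29, 3.74 and 3.42 CPM in KU55933. All KU55933 libraries were above vehicle for this one, at 1.28 ± 0.39 in log2 (SE, adjusted p = 0.102 by edgeR).

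The low Per3 value of KU55933 1 was seen in several of its transcripts. The coding transcript ENSMUST00000103204 had 34.3, 30.3, 32.6 and 37.5 CPM in vehicle and 18.1, 25.3, 29.6 and 29.8 CPM in KU55933. Every KU55933 library was below vehicle, while the transcript did not pass (log2 change -0.39 ± 0.16 SE, adjusted p = 0.223 by edgeR). The transcript ENSMUST00000138052, annotated as processed and not coding, had 11.5, 24.1, 19.8 and 26.8 CPM in vehicle and 9.29, 25.4, 19.3 and 24.2 CPM in KU55933. Replicate 1 of each group was low here, as in the retained intron transcript ENSMUST00000138584 (2.72, 5.89, 5.57 and 7.21 CPM in vehicle, 1.77, 6.75, 3.47 and 5.90 CPM in KU55933). These are the libraries with the smallest share of retained-intron transcripts, and the part of that share in the Per3 sum was not tested. The leading transcripts of Per1 (ENSMUST00000021271, -0.48), Nr1d1 (ENSMUST00000064941, -0.32), Nr1d2 (ENSMUST00000090543, 0.29) and Clock (ENSMUST00000202651, 0.28) had log2 changes close to those of their genes, with adjusted p from 0.0632 to 0.0855 by edgeR.

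**Figure D4:**
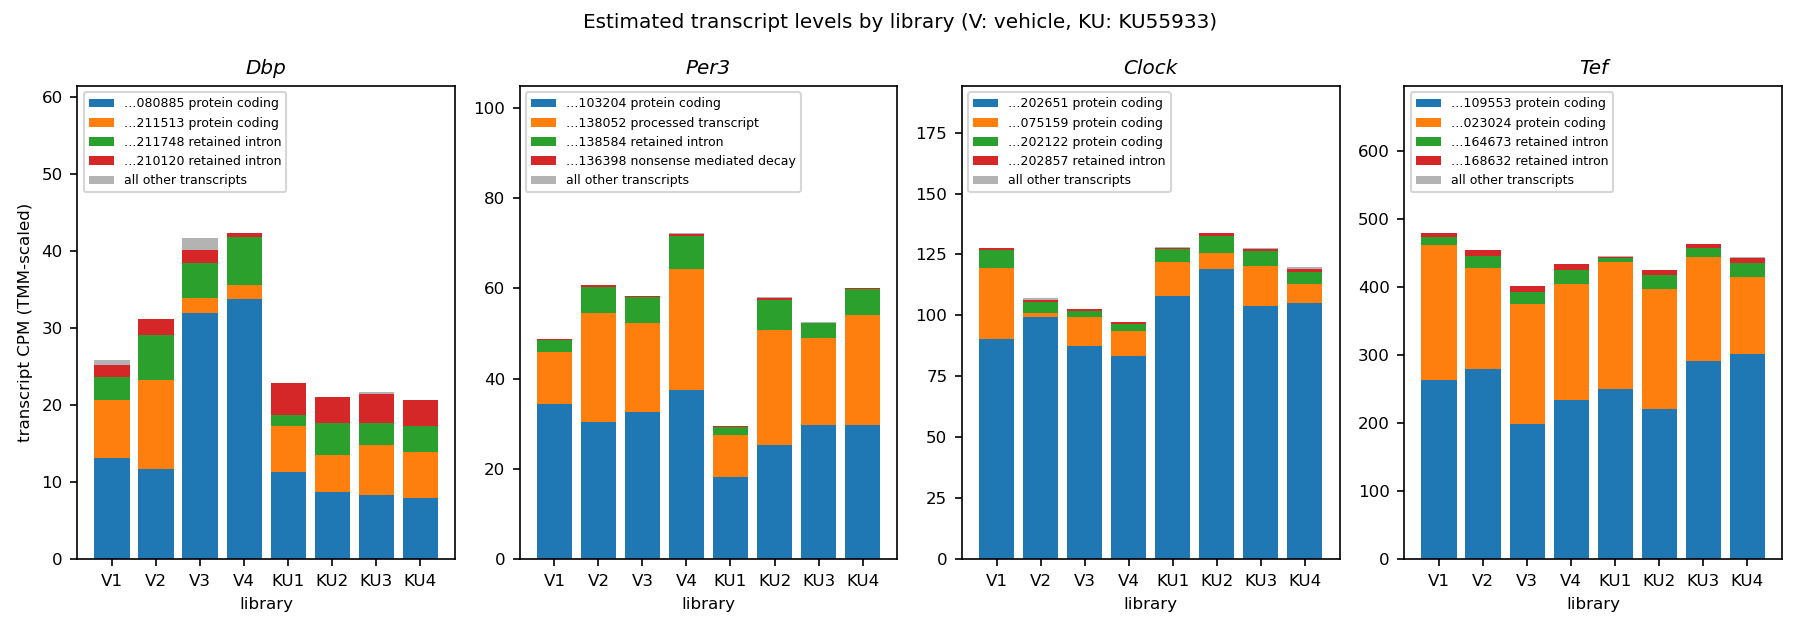
Estimated CPM (TMM-scaled) of the transcripts of Dbp, Per3, Clock and Tef in each vehicle (V) and KU55933 (KU) library, stacked, with transcripts named by the last 6 digits of their identifiers. The Dbp transcript ENSMUST00000080885 stands at 31.9 and 33.7 CPM in V3 and V4 and between 7.98 and 13.2 CPM in the other 6 libraries.

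Beyond the 10 genes, 30 further genes of the clock were counted, of which edgeR called 4 higher and 4 lower and 22 did not pass (26.7% called, against 21.6% of all genes). These lists too were chosen with earlier results of these data known. Of 12 other core or clock-linked transcription factor genes 2 were higher and 1 lower. The RORα gene Rora, whose product competes with REV-ERB at RREs, rose by 0.45 ± 0.12 on the log2 scale (SE, adjusted p = 0.0226), and the PAR bZIP gene Hlf by 0.31 ± 0.10 (adjusted p = 0.0452 by edgeR). Cry2, the second cryptochrome gene, had 130, 160, 152 and 167 CPM in vehicle and 125, 114, 121 and 121 CPM in KU55933, all of the latter lower (-0.34 ± 0.08 SE, adjusted p = 0.0175 by edgeR). Npas2, a stand-in for CLOCK in the forebrain, did not pass, with 13.8 to 23.7 CPM in vehicle and 18.4 to 24.6 CPM in KU55933 (log2 change 0.11, adjusted p = 0.637). Nfil3, which represses through D-boxes that DBP and TEF activate, had 13.7, 8.43, 8.34 and 8.23 CPM in vehicle and 12.3, 10.8, 11.9 and 12.6 CPM in KU55933, with vehicle 1 the highest of all 8 libraries and the other vehicle libraries below KU55933 (0.29 ± 0.17 SE, adjusted p = 0.218 by edgeR).

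Of 12 genes for kinases, ubiquitin ligases and cofactors of clock proteins 1 was higher and 1 lower, where 6.92% and 14.6% of all tested genes were. Csnk1e, casein kinase 1 epsilon, which phosphorylates PER proteins, fell by 0.29 on the log2 scale (adjusted p = 0.0382 by edgeR). Of 6 rhythmic output genes 1 was higher and 2 lower, against the same shares of all genes. Nampt, the rate-limiting enzyme gene of NAD salvage, rose (0.30, adjusted p = 0.0192) and the deubiquitinase gene Usp2 fell by 0.54 on the log2 scale (adjusted p = 0.0197 by edgeR). Cirbp, a cold-inducible RNA-binding protein gene that follows body temperature, had 37.7, 71.5, 65.2 and 61.4 CPM in vehicle and 30.1, 32.3, 26.7 and 26.2 CPM in KU55933. Vehicle 1 was again the vehicle library nearest to KU55933, and Cirbp fell 2.05-fold (-1.03 ± 0.18 SE, adjusted p = 0.00388 by edgeR), to -0.72 with the offset (adjusted p = 0.101). Of the 40 genes of all 4 lists 13 were called, where 21.6% of all tested genes were. The 6 higher ones had 40.6 to 45.3% GC and the 7 lower ones 53.6 to 59.2% GC. All genes parted in this way too. In the lowest of 10 GC bins 26.1% were called higher and 0.0646% lower, and in the highest bin 0.129% and 73.9%. With the offset edgeR called 0 of the 40, where it called 1.96% of all genes.

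The genes closest to a member in pattern were sought among 12513 tested genes by the root mean square difference of log2 CPM, each gene centred on its own mean over the 8 libraries. Nearest to Dbp were Fhod1 (0.0885), Mrps26 (0.0902) and Snrpf (0.102). Nearest to Per2 were Zmynd8 (0.0629), Znrf1 (0.0674) and Acad12 (0.0684), and nearest to Nr1d1 were Trak1 (0.0368), Bysl (0.0397) and Mapk8ip2 (0.0415). No fellow member was among these: the closest to Dbp was Nr1d1 at rank 2091, the closest to Per2 was Per1 at rank 1081 and the closest to Nr1d1 was Per1 at rank 1159. The part of the GC trend in these ranks was not tested.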

How the data were processed

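Polyadenylated RNA of 8 mouse hippocampus libraries, 4 per group as labelled, was sequenced with a stranded kit (TruSeq Stranded mRNA). The authors deposited estimated counts of each transcript (expected counts), as whole numbers made with Salmon 1.4.0 on build GRCm39, with FastQC 0.11.9 and DESeq2 1.32.0, per the submitters' processing notes. No source used here says how they were rounded. Counts of 74764 transcripts were summed per gene (19558 genes), with totals of 34190440 to 46630341 per library. Rows without a gene name, 0.0381% of counts, were grouped by their identifier. GC content and length came from GENCODE mouse release transcripts, which matched 99.7% of transcripts and 99.82% of counts, and no coordinates were taken from them.

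Genes passing edgeR's filterByExpr (15481) were TMM-scaled and tested two-sided in R 4.3.3 by edgeR 4.0.16 (quasi-likelihood F, robust, with limma 3.58.1 for voom), with Benjamini-Hochberg adjustment at 0.05. The prior count of log2 CPM was 2. Offsets were each library's splines on GC content (6 degrees of freedom) and length (5). Alternatives were upper-quartile and RLE scaling, dropping the filter or 1 CPM in 4 libraries, DESeq2 1.42.0, limma-voom, a replicate block, each library left out, and KU55933 1 and 2 left out together. The offset with each library left out was added later. Genes named were the 10 members, each called gene of 3 clock lists, Arntl, Npas2, Cry2 and Nfil3, and the 3 nearest genes to Dbp, Per2 and Nr1d1. A gene that met this rule is counted in its list but not reported here. The members and lists were chosen with earlier results of these data known. Replicates are separate mice by the labels' counts, and no libraries were duplicates: chi-square per degree of freedom was at least 15.5 in 12 within-group pairs. The tests were tried on simulated counts. They recovered a smaller share of the simulated 2-fold changes than was first asked for, and the limit was then lowered. Tables used pandas 2.3.3 and NumPy 2.4.6 in Python 3.11.15, and plots matplotlib 3.10.9.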

Additional observations from a re-analysis of the deposited data

Results flagged for a closer look

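Of 80 sets of 4 libraries (40 clock-related genes in 2 groups), 5 had a library far from the other 3 by Dixon's ratio of gap to range, where chance gives about 1 in 20. In vehicle 1, Nfil3 stood at 13.7 CPM (next 8.43), Tsc22d3, a glucocorticoid-induced gene, at 77.9 CPM (next 42.0) and the cell cycle kinase gene Wee1 at 20.03 CPM (next 16.3), each the highest of vehicle. The casein kinase gene Csnk1d was lowest in KU55933 2 at 140 CPM (next 152), and Cipc, whose product represses CLOCK, was lowest in KU55933 4 at 85.2 CPM (next 89.1). None of the 10 members had such a library. Tsc22d3 and Wee1 did not pass edgeR's test (adjusted p = 0.191 and 0.149).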

How the results depend on the processing

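Of the 10 members 5 were called, with 3 other core genes, 2 modifiers, 3 outputs and 0 transcripts. Other scalings, filters, dispersions and tools moved these counts by at most 1.5 times, except modifiers with no filter (1) and transcripts at 0.1 (5), with upper-quartile scaling (2) or with the 1 CPM filter (2). Among all transcripts edgeR called 2966 with upper-quartile scaling and 3448 with the 1 CPM filter, against 3065 in the main fit. The like count at 0.1 is not given here. With single libraries left out, the counts ranged from 2 to 6, 0 to 5, 0 to 3, 1 to 5 and 0 to 1. Among all genes these fits called 1597 to 4348. Without KU55933 1 and 2 the list counts were 0, 0, 0 and 1 for the genes and 0 for transcripts. That fit called 1090 of all genes, against 3338 with all libraries. With the GC offset, or GC and length, the gene counts were all 0, and with the replicate block added 0, 1, 0 and 0. Among all genes these fits called 236, 304 and 796. With the GC and length offset and single libraries left out, members and modifiers stayed at 0 and the other lists ranged from 0 to 2. Those fits called only 79 to 712 of all genes.

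The log2 change of Per1 was 0.172 with the GC offset, 0.152 with length added, 0.160 with the block too, and with the offset 0.239, 0.147, 0.0798 and 0.157 without vehicle 1 to 4 and 0.158, 0.179, 0.11 and 0.168 without KU55933 1 to 4. For Nr1d1 the first 3 were 0.0685, 0.0609 and 0.0586, followed by 0.119, 0.0255, 0.0439 and 0.0570 without vehicle 1 to 4 and -0.0064, 0.0613, 0.0625 and 0.125 without KU55933 1 to 4. Per2 turned to 0.0135 without KU55933 1 and 2, and to 0.0280 with the offset and without KU55933 1. Tef ranged from -0.00250 (without vehicle 3) to 0.0704 with single libraries left out. The causes were not tested. The median spread of the members, 0.139 in vehicle and 0.120 in KU55933, was 0.132 and 0.159 with the GC and length trend taken out, and 0.0887 to 0.164 and 0.09996 to 0.139 with single libraries left out.

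Same-numbered libraries correlated at 0.0393 to 0.294 in their deviations, and the labels do not say that numbers pair mice. Vehicle 1, 2 and 4 correlated best with their own number (0.294, 0.0840 and 0.202), and vehicle 3 with KU55933 2 (0.0751). Differently numbered pairs ran from -0.221 to 0.115. With the replicate block edgeR called 4444 genes in place of 3338, and 5 members.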
